A study of Sus scrofa with 12 samples.

Results

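The enteric neuron and glia genes described here are UCHL1, TUBB3, SNAP25, RET and VIP, which mark neurons of the gut wall, and GFAP, which marks enteric glia. The list held 8 genes, picked by gene name from a table of 17049 different gene names. UCHL1, RET and GFAP stood in the table under their own symbols. SNAP25, TUBB3 and VIP stood there under an Ensembl identifier that the pig annotation pairs with the symbol, which brought the number to 6. The neuron gene ELAVL4 and the glia gene S100B were matched neither way and were not analysed here, so that glia are represented by GFAP alone. Each of the 6 genes was a single row of the table. The list was proposed with earlier results of these data known, and the levels of its members are therefore given as a description, without a test.

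RNA was sequenced from the jejunum of 12 piglets in 4 groups of 3. W_Con piglets were taken at 21 days of age, on the day of weaning, from sows fed a corn-soybean basal diet. PW_Con piglets, from sows on the same diet, were 28 days old and had been weaned for 7 days. W_Res and PW_Res piglets were the same ages, and their sows ate the basal diet with 300 mg/kg resveratrol, a plant polyphenol, from early gestation until the end of lactation. Below, the 21-day groups are called sucking piglets and the 28-day groups weaned piglets. Piglets were fostered within their diet, per the series record. The sources differ on the breed: the record names pooled Landrace semen, and the paper on the control litters names a Yorkshire by Duroc cross. Piglets never ate the supplement as a labelled treatment of their own, weaning and 7 days of growth cannot be told apart, and the labels do not give the litter of any piglet. The paper on the control libraries draws both ages from the same litters, so that PW_Con and W_Con may hold litter mates. The labels call the 3 libraries of a group biological replicates, and a P value measures the spread between those libraries.

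The enteric nervous system lies in 2 nerve networks of the gut wall, 1 between the muscle layers and 1 in the submucosa, and sends fibres into the villi. Its neurons steer motility, secretion and blood flow, and glia surround their cell bodies and fibres. Neurons and glia both descend from neural crest cells that enter the gut and depend on the receptor RET. The cells are few in a piece of intestine, and in bulk RNA fewer cells of a type and less RNA per cell cannot be told apart.

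Values are FPKM, in which fragment numbers are scaled to transcript length and to the total mapped, so that levels can be set side by side between genes. All 6 genes were low. Their means over a group lay between 0.587 FPKM, for RET in PW_Res, and 9.51 FPKM, for UCHL1 in W_Res. Some libraries stood apart before any comparison was made. Smooth muscle transcripts, summed over 9 genes, were 3996 FPKM in W_Res replicate 2 and 1845 FPKM in W_Res replicate 1, against 156 to 673 FPKM in the other 10 libraries, with the lowest sum in W_Con replicate 3. FABP6, a gene of the distal small intestine, ranged from 1.70 to 24110 FPKM over the 12 libraries, with low and high libraries in 3 of the 4 groups. Its part in the results was not tested.

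The neuron genes are described first. UCHL1 encodes PGP9.5, a ubiquitin hydrolase that is abundant in neuronal cell bodies and fibres and also found in endocrine cells. In sucking control piglets it stood at 5.34, 6.99 and 2.14 FPKM, and in weaned control piglets at 3.73, 4.63 and 7.10 FPKM. In resveratrol litters it stood at 8.48, 13.95 and 6.10 FPKM before weaning and at 2.09, 4.24 and 2.03 FPKM after it. The control groups overlapped, while every sucking piglet of a resveratrol litter was above every weaned one. The mean in PW_Res was 0.293 times that in W_Res.

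TUBB3, the neuronal beta-tubulin of axons, was at 2.94, 2.50 and 0.619 FPKM in W_Con and at 2.42, 4.35 and 4.68 FPKM in PW_Con. It was at 3.41, 7.80 and 3.41 FPKM in W_Res and at 2.14, 2.41 and 1.39 FPKM in PW_Res. All 3 W_Res values were above all W_Con values, and all 3 PW_Res values were below all PW_Con values, the nearest by 2.41 against 2.42 FPKM. TUBB3 was the member for which both comparisons of diet had groups apart. Beta-tubulin genes are closely alike in sequence, so that reads shared between them make its level uncertain.

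SNAP25 is the membrane protein of the complex that fuses synaptic vesicles, and endocrine cells of the gut use it too. Its values were 1.61, 1.16 and 0.267 FPKM in W_Con, 1.01, 1.12 and 1.24 FPKM in PW_Con, 1.85, 2.38 and 1.17 FPKM in W_Res and 0.628, 1.69 and 0.643 FPKM in PW_Res. It was the only one of the 6 genes whose W_Res and PW_Res groups overlapped, because PW_Res replicate 2 lay above W_Res replicate 3.

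RET, the receptor tyrosine kinase through which GDNF-family ligands keep enteric precursors and neurons alive, had the lowest mean of the 5 neuron genes in all 4 groups. Its values were 1.17, 0.832 and 0.287 FPKM in W_Con and 0.598, 1.39 and 1.01 FPKM in PW_Con. They were 1.40, 2.68 and 1.08 FPKM in W_Res and 0.649, 0.531 and 0.580 FPKM in PW_Res. The PW_Res piglets lay within a narrow band (SD 0.0591 FPKM, n = 3), under each W_Res piglet.

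VIP, the peptide that secretomotor and inhibitory motor neurons release to drive fluid secretion and relax muscle, differed from the other neuron genes in its extremes. It was at 10.0, 5.23 and 1.92 FPKM in W_Con and at 3.18, 4.41 and 6.30 FPKM in PW_Con. It was at 4.15, 8.51 and 7.45 FPKM in W_Res and at 2.30, 3.37 and 2.83 FPKM in PW_Res. Its highest library was W_Con replicate 1, and its W_Con piglets spanned a wider range than those of its other groups.

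GFAP, the intermediate filament of astrocytes and of enteric glia, stood for glia. Its values were 0.812, 1.51 and 0.507 FPKM in W_Con and 0.815, 1.37 and 1.09 FPKM in PW_Con. In resveratrol litters they were 2.55, 3.41 and 1.24 FPKM in W_Res and 0.905, 1.02 and 0.368 FPKM in PW_Res. As with the neuron genes other than SNAP25, the W_Res piglets lay above the PW_Res piglets, and the control groups overlapped.

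**Figure D1:**
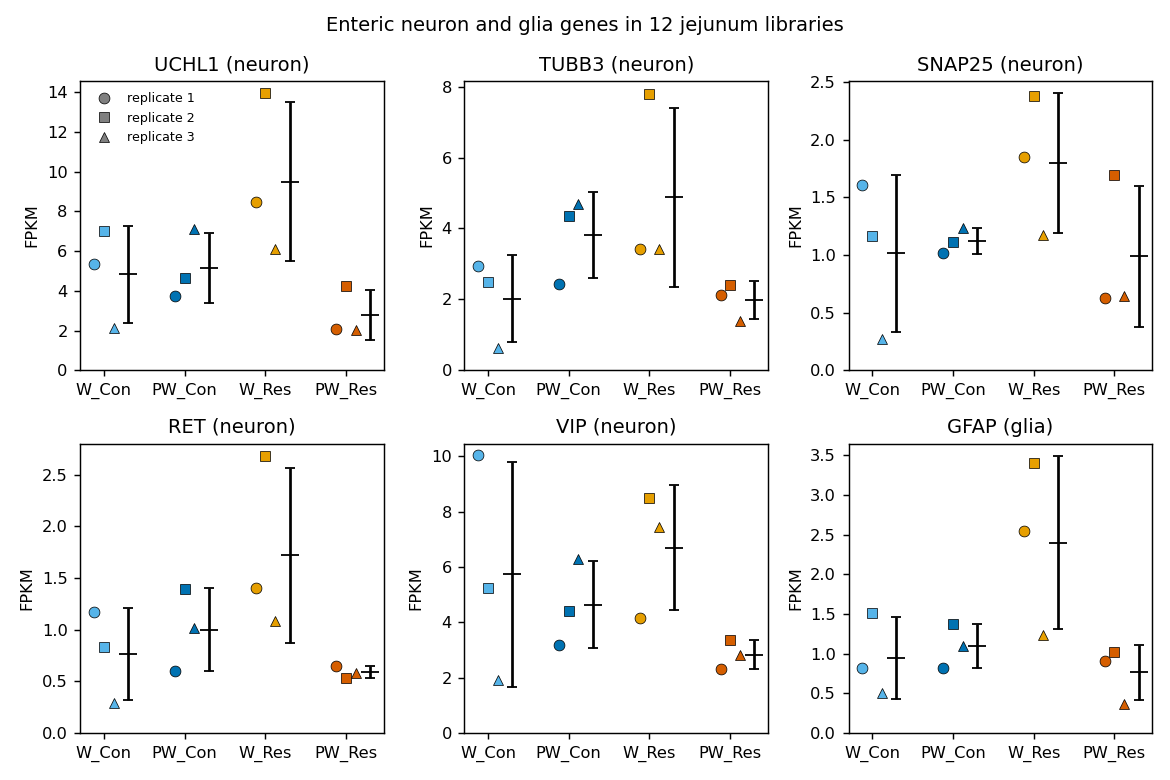
FPKM of 5 enteric neuron genes and the glia gene GFAP in each library, by group, with symbols for the replicate and a bar for the group mean ± SD (n = 3). W_Res replicate 2 is the highest point in every panel but that of VIP, and the W_Res points lie above the PW_Res points in every panel but that of SNAP25.

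The order of the groups by mean was nearly the same in all 6 genes. W_Res was highest and PW_Res lowest in each. The control groups lay between them, with PW_Con above W_Con in 5 genes and below it for VIP. Neighbouring groups in that order overlapped for every gene. The extremes also fell on the same libraries. W_Res replicate 2 held the highest value for 5 of 6 genes and W_Con replicate 3 the lowest for 4 of 6, while UCHL1 and GFAP were lowest in PW_Res replicate 3. From the lowest to the highest library the genes spanned between 5.24-fold (VIP) and 12.6-fold (TUBB3).

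The genes also varied together. Between pairs of the 6 genes, Pearson's r of log2(FPKM + 1) over the 12 libraries ranged from 0.503 to 0.908, with a median of 0.795 over 15 pairs. These libraries share their groups and the 2 extreme libraries just named, so that r is given as a description.

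Neurons were set against glia by the ratio of GFAP to the 5 neuron genes. The summed neuron genes were 21.1, 16.7 and 5.24 FPKM in W_Con and 10.95, 15.9 and 20.3 FPKM in PW_Con. They were 19.3, 35.3 and 19.2 FPKM in W_Res and 7.80, 12.2 and 7.47 FPKM in PW_Res. GFAP as a percent of that sum was 7.52 ± 3.20 in W_Con, 7.15 ± 1.65 in PW_Con, 9.77 ± 3.37 in W_Res and 8.29 ± 3.34 in PW_Res (SD, n = 3 each). The 4 groups overlapped, from 3.85% in W_Con replicate 1 to 13.2% in W_Res replicate 1. Longer lists of other neuron and glia genes, described further on, were summed in the same way. The other neuron genes were at 55.9 to 97.6 FPKM in W_Res and 28.1 to 37.5 FPKM in PW_Res, without overlap, and the other glia genes were at 37.7 to 57.2 and 48.8 to 64.2 FPKM, with overlap. Most of that glia sum was CNP, an enzyme of myelin that is also made outside glia, at 24.1 to 37.4 and 40.2 to 54.7 FPKM. Within the neuron genes, TUBB3 made up 11.8 to 14.9% of the sum in W_Con and 22.1 to 27.3% in PW_Con. VIP made up 31.3 to 47.6% and 27.8 to 31.0%. The shares of UCHL1, SNAP25 and RET overlapped between those groups. In resveratrol litters TUBB3 made up 17.7 to 22.1% in W_Res and 18.5 to 27.4% in PW_Res, and VIP 21.5 to 38.8% and 27.5 to 37.9%, so that both overlapped.

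The first comparison asked how the sucking and the weaned piglets of control sows differed. Differences below are of group means of log2(FPKM + 1), later or treated group minus the other, with the SE from limma. Among the neuron genes the differences were 0.15 ± 0.38 for UCHL1, 0.74 ± 0.38 for TUBB3, 0.14 ± 0.29 for SNAP25, 0.20 ± 0.27 for RET and -0.09 ± 0.47 for VIP. For GFAP the difference was 0.13 ± 0.25. The groups overlapped for all 6 genes, whereas among 12611 genes tested 12.6% had groups apart with the weaned piglets higher and 12.7% with them lower. Without W_Con replicate 3 the median difference of the neuron genes turned from 0.15 to -0.16.

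Resveratrol litters gave the larger weaning differences. They were -1.45 ± 0.35 for UCHL1, -0.92 ± 0.33 for TUBB3, -0.51 ± 0.30 for SNAP25, -0.73 ± 0.28 for RET and -0.97 ± 0.28 for VIP. The glia gene GFAP, at -0.91 ± 0.32, lay within the range of the neuron genes. The groups were apart, with weaned piglets lower, for 5 of 6 genes, and 17.9% of 13013 genes had groups apart in that direction. The median difference over all these genes was -0.16, or -0.04 once libraries were rescaled by the median of ratios, and the median of the 5 neuron genes was -0.92, or -0.79 after that rescaling. Of the 12953 genes tested after it, 1450 had groups apart with weaned piglets lower, against 2325 before it. Those apart with weaned piglets higher were 1008 against 511. Past the standard, defined below, 332 were lower after rescaling, against 489.

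Values were also taken without the W_Res replicates of highest smooth muscle level. W_Res replicate 3 had a smooth muscle sum of 673 FPKM, and the PW_Res piglets had sums of 647, 458 and 207 FPKM. It lay above all 3 PW_Res piglets for 5 of 6 genes. With that library as the only W_Res sample, a setting with no spread of its own in W_Res, the differences were -0.96 for UCHL1, -0.58 for TUBB3, -0.17 for SNAP25, -0.39 for RET, -1.15 for VIP and -0.36 for GFAP. With the mean log2 level of the 9 smooth muscle genes as a covariate they were -0.78 for UCHL1, -0.24 for TUBB3, -0.09 for SNAP25, -0.25 for RET, -1.05 for VIP and -0.12 for GFAP. The smooth muscle sums of W_Res and PW_Res did not overlap, so that this covariate and the group cannot be cleanly separated. Both settings were added after seeing the data.

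The difference between the 2 weaning differences, resveratrol litters minus control litters, was taken over all 12 libraries. It was -1.60 ± 0.55 for UCHL1, -1.66 ± 0.53 for TUBB3, -0.65 ± 0.42 for SNAP25, -0.93 ± 0.38 for RET, -0.88 ± 0.59 for VIP and -1.04 ± 0.41 for GFAP. All 6 were below 0, while the median over 12886 genes was -0.15. With the smooth muscle covariate the median of the neuron genes went from -0.93 to -0.30 and GFAP from -1.04 to -0.19. VIP was -0.30 there and SNAP25 turned to 0.041. With 1 library left out, VIP ranged from -1.33 to -0.37 and SNAP25 from -0.89 to -0.35.

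Maternal resveratrol was then compared at each age. These comparisons share the W_Con, W_Res, PW_Con and PW_Res libraries with those above and give no independent view of them. In sucking piglets the differences were 0.89 ± 0.41 for UCHL1, 0.98 ± 0.43 for TUBB3, 0.51 ± 0.34 for SNAP25, 0.61 ± 0.33 for RET, 0.35 ± 0.49 for VIP and 0.78 ± 0.34 for GFAP. TUBB3 alone had groups apart, against 13.8% of 13186 genes with W_Res higher. The means of UCHL1, TUBB3, RET and GFAP in W_Res were 1.97, 2.42, 2.25 and 2.54 times those in W_Con, and those of SNAP25 and VIP 1.77 and 1.17 times. VIP turned to -0.15 without W_Con replicate 3. The lowest values with 1 library left out were 0.49 for UCHL1, 0.58 for TUBB3, 0.21 for SNAP25, 0.37 for RET and 0.57 for GFAP. With the smooth muscle covariate the median of the neuron genes turned from 0.61 to -0.14, and GFAP went from 0.78 to 0.061.

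In weaned piglets the sign was the opposite. The differences were -0.71 ± 0.30 for UCHL1, -0.68 ± 0.26 for TUBB3, -0.13 ± 0.24 for SNAP25, -0.32 ± 0.20 for RET, -0.53 ± 0.25 for VIP and -0.26 ± 0.22 for GFAP. At the nearest to 0, leaving out 1 library gave -0.01 for SNAP25, -0.18 for RET, -0.32 for VIP and -0.08 for GFAP. TUBB3 alone had groups apart, as did 11.8% of 12380 genes with PW_Res lower. Smooth muscle sums at this age were 423 to 574 FPKM in PW_Con and 207 to 647 FPKM in PW_Res, and with the covariate the median of the neuron genes was -0.54 against -0.53 without it.

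**Figure D2:**
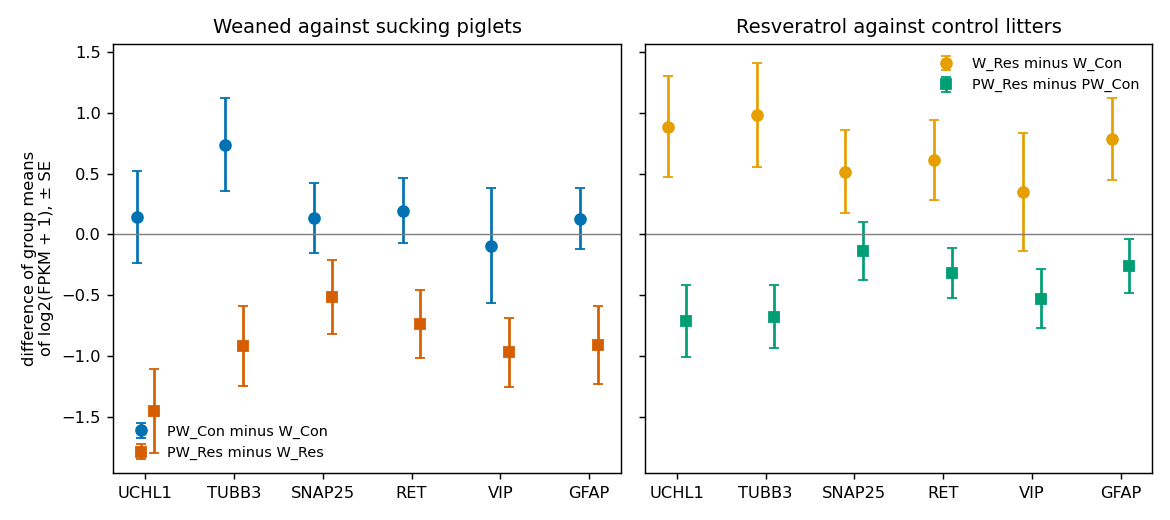
Difference of group means of log2(FPKM + 1) for each gene, with bars for the SE, for weaned minus sucking piglets (left) and resveratrol minus control litters (right). The weaning differences lie between -0.09 and 0.74 in control litters and between -1.45 and -0.51 in resveratrol litters.

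Other genes of the same cells, from lists of 40 neuron genes, 18 glia genes and 14 genes of enteric nervous system signalling, were tested with limma. A gene passed the standard with an unadjusted P under 0.05 and a log2 difference above 1 or below -1. Of these lists 34, 13 and 11 genes were matched. Many are scarce in whole jejunum, and 13 neuron genes and 7 glia genes had a mean under 0.5 FPKM. Among them was SOX10, the transcription factor that defines enteric glia, at 0.0632 to 0.709 FPKM, named after its values were seen. No gene of the 3 lists had an adjusted p under 0.05 in any comparison with limma, and the lowest was 0.117.

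In control litters 17 of the 34 neuron genes were tested, and 16 had a difference above 0, with a median of 0.20 against -0.02 over all genes. With 1 library left out, GAP43, NEFL, STMN2 and TAC1 fell as low as -0.12, -0.09, -0.28 and -0.09. GAL, HAND2, PENK, PRPH and RAB3A stayed above 0. PENK, the precursor of the enkephalins, which are opioid peptides of myenteric motor neurons, was the gene that passed the standard, as did 1.5% of all genes in that direction. It was at 0.114, 0.159 and 0.0433 FPKM in W_Con and at 2.71, 4.66 and 1.64 FPKM in PW_Con, a difference of 1.79 ± 0.29 (limma, adjusted p = 0.117). PENK reached the mean of 0.5 FPKM needed for a test through PW_Con, and so did NEFM. The count of 16 and its median rest in part on that filter. The neuronal filament gene PRPH and the vesicle gene RAB3A also had groups apart, at 0.88 ± 0.35 and 0.64 ± 0.27, without passing the standard (limma, adjusted p = 0.259 and 0.278). That made 3 of 17 neuron genes apart with weaned piglets higher, beside 12.6% of all genes. PRPH passed without W_Con replicate 1 (1.13) or PW_Con replicate 1 (1.07). Its lowest value with 1 library left out was 0.52, and that of RAB3A was 0.41. None of the 6 glia genes and 8 signalling genes tested passed the standard. Of the glia genes 4 lay above 0, and of the signalling genes 7 lay below it, with a median of -0.22. ADCYAP1R1, a receptor of the peptide PACAP, named after its values were seen, had groups apart with weaned piglets lower, at -0.48 ± 0.24 (limma, adjusted p = 0.352). It was 1 of 8 signalling genes apart in that direction, beside 12.7% of all genes, a share near its own.

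In resveratrol litters 20 of 21 neuron genes tested lay below 0, with a median of -0.73, as did 8579 of all 13013 genes, with a median of -0.16. The standard was passed by 4 of them with weaned piglets lower, beside 3.76% of all genes, and 12 had groups apart in that direction, beside 17.9%. HAND2, a transcription factor of enteric neuron precursors that is also active in gut mesenchyme, was at 4.83, 9.60 and 1.87 FPKM in W_Res and at 0.726, 1.39 and 0.742 FPKM in PW_Res, a difference of -1.54 ± 0.46 (limma, adjusted p = 0.311). PRPH, the intermediate filament of peripheral neurons, was at 4.91, 13.4 and 4.58 FPKM against 3.01, 2.92 and 1.16 FPKM, a difference of -1.27 ± 0.43 (limma, adjusted p = 0.340). NEFL, a neurofilament subunit, differed by -1.18 ± 0.35, and STMN2, a tubulin-binding protein of growing axons, by -1.01 ± 0.37 (limma, adjusted p = 0.311 and 0.344). In all 4 genes the lowest W_Res piglet was above the highest PW_Res piglet, for STMN2 by 2.66 against 2.61 FPKM. TAC1, the precursor of substance P, an excitatory peptide, differed by -0.78 ± 0.52 with overlapping groups (limma, adjusted p = 0.534), and by -1.14 to -0.16 with 1 library left out. It turned to 0.45 with the smooth muscle covariate. The count of 20 of 21 and its median rest in part on the filter. ELAVL3, PHOX2A, DCX, SYT1, CHRNA3 and NEFM averaged 0.132 to 0.451 FPKM in PW_Res and reached the mean of 0.5 FPKM through W_Res. NPY, at means of 0.061 FPKM in W_Res and 0.212 FPKM in PW_Res, was not tested. The 4 genes past the standard averaged 0.954 to 2.36 FPKM in PW_Res.

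Of 7 glia genes tested in resveratrol litters, 2 passed the standard with weaned piglets lower, beside 3.76% of all genes. CRYAB, a small heat shock protein of glia that muscle makes as well, was at 10.7, 9.90 and 7.21 FPKM in W_Res and at 1.81, 3.57 and 1.61 FPKM in PW_Res, a difference of -1.66 ± 0.28 (limma, adjusted p = 0.311). LGI4, which glia secrete during myelination and maturation, was at 3.44, 5.37 and 1.41 FPKM against 0.994, 0.998 and 0.696 FPKM, a difference of -1.11 ± 0.37 (limma, adjusted p = 0.337). CNP, an enzyme of myelinating glia with a wide expression elsewhere, had groups apart in the other direction, at 0.69 ± 0.24 (limma, adjusted p = 0.340), as did 3.93% of all genes. GPM6B, a membrane glycoprotein of neurons and glia, differed by 0.26 ± 0.27 (limma, adjusted p = 0.696), so that 5 glia genes lay below 0 and 2 above it. The count of 5 rests in part on the filter. It includes CHL1, at -0.72, which reached the mean of 0.5 FPKM through W_Res.

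Ligands, co-receptors and receptors around RET and VIP were also measured. GFRA1, the co-receptor that presents GDNF to RET, was at 1.53, 2.70 and 0.960 FPKM in W_Res and at 0.415, 0.567 and 0 FPKM in PW_Res. VIPR2, a VIP receptor that smooth muscle carries, was at 1.54, 2.99 and 0.989 FPKM in W_Res and at 0.164, 0.169 and 0.302 FPKM in PW_Res. Both passed the standard, at -1.02 ± 0.32 and -1.17 ± 0.31 (limma, adjusted p = 0.333 and 0.311), and were 2 of 11 signalling genes tested, beside 3.76% of all genes in that direction. Both reached the mean of 0.5 FPKM needed for a test through W_Res, where they were high. In control litters and in weaned piglets they did not reach it and were not tested.

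The other genes of this list did not pass it. Of the 11 tested, 10 lay below 0, and NRG1, a ligand of the glial receptor ERBB3, lay above it at 0.52 ± 0.31 (limma, adjusted p = 0.491). NRTN, the RET ligand neurturin, differed by -0.41 ± 0.27, and its co-receptor GFRA2 by -0.82 ± 0.42. EDNRB, the endothelin receptor that guides crest cells into the distal gut, differed by -0.92 ± 0.43. With 1 library left out, GFRA2 ranged from -1.11 to -0.35 and EDNRB from -1.27 to -0.63. With the smooth muscle covariate GFRA2 turned to 0.031 and EDNRB was -1.34. GFRA2 passed without W_Res replicate 3, and EDNRB without W_Res replicate 2 or PW_Res replicate 2. VIPR1, the VIP receptor of epithelium, named after its values were seen, was at 0.102 to 1.31 FPKM over the 12 libraries and differed by -0.18 ± 0.35. The adjusted p of these 4 in limma lay between 0.399 and 0.845. ERBB3, the neuregulin receptor of glia that epithelium expresses too, was at 33.2 to 71.8 FPKM over the 12 libraries and differed by -0.30 ± 0.26 (limma, adjusted p = 0.631).

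Of the 8 list genes past the standard in resveratrol litters, CRYAB alone passed it with the smooth muscle covariate, at -1.30. HAND2, PRPH, NEFL and LGI4 were -0.37, -0.21, -0.47 and -0.15 with the covariate. STMN2, GFRA1 and VIPR2 were -0.41, -0.29 and -0.64 there. Without W_Res replicate 2, CRYAB and HAND2 were the only ones of the 8 to pass, and without PW_Res replicate 3 CRYAB, HAND2, NEFL and VIPR2 were. In the first case the others lay between -0.89 (VIPR2) and -0.77 (GFRA1). In the second they were -1.03 for LGI4, -0.97 for PRPH, -0.82 for GFRA1 and -0.68 for STMN2. STMN2 also did not pass without W_Res replicate 3 (-1.02) or PW_Res replicate 2 (-1.01), nor LGI4 without W_Res replicate 1 (-1.05).

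The difference of the weaning effect between resveratrol and control litters was tested for the same lists over all 12 libraries. The standard was passed with a value below 0 by 8 of 21 neuron genes, 3 of 6 glia genes and 2 of 10 signalling genes, beside 5.95% of all genes, and none passed it above 0. Of those that passed, ELAVL3, GFRA1 and VIPR2 reached the mean of 0.5 FPKM through W_Res. So did SYT1, CHRNA3 and PHOX2A, which were tested here and did not pass. The medians of the lists were -0.98, -0.99 and -0.44, against -0.15 over all genes. The neuron and signalling counts and medians thus rest in part on the filter, and the neuron median is the value of SYT1. The largest values were those of PRPH and HAND2, at -2.15 ± 0.60 and -2.03 ± 0.56 (limma, adjusted p = 0.251 each). With the smooth muscle covariate 5 list genes passed instead of 13, and 308 of all genes passed below 0 instead of 767. PENK was among those 5, at -2.16. It was not among the 13, at -1.56 (limma, unadjusted P = 0.0518). Without W_Con replicate 3 or without PW_Con replicate 2, 8 list genes passed.

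At 21 days of age all 21 neuron genes tested had a difference above 0 between resveratrol and control litters, with a median of 0.57 against 0.09 over all genes. The standard was passed by 5 of them with W_Res higher, beside 2.99% of all genes, and 11 had groups apart, beside 13.8%. They were HAND2 (1.63 ± 0.46), PENK (1.52 ± 0.52), PRPH (1.35 ± 0.46), GAL (1.26 ± 0.38) and NEFL (1.19 ± 0.38), each with an adjusted p of 0.344 in limma. GAL encodes galanin, a peptide of secretomotor and interneurons, and was at 3.26, 2.02 and 0.502 FPKM in W_Con and at 4.56, 6.29 and 5.50 FPKM in W_Res. The count of 21 and its median rest in part on the filter. ELAVL3, PHOX2A, DCX, NEFM, SYT1 and PENK averaged 0.073 to 0.478 FPKM in W_Con and reached the mean of 0.5 FPKM through W_Res. NPY averaged 0.877 FPKM in W_Con and 0.061 FPKM in W_Res and was not tested.

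PENK was uneven in W_Res, at 5.66, 0.417 and 2.34 FPKM, with its lowest value in the library where most other neuron genes were highest. It thus had levels under 0.2 FPKM in the 3 W_Con piglets and above it in the other 9 libraries. CRYAB (1.26 ± 0.22) and LGI4 (1.11 ± 0.44) passed among the glia genes, and VIPR2 (1.05 ± 0.32) and GFRA1 (1.04 ± 0.37) among the signalling genes (limma, adjusted p from 0.256 to 0.363). VIPR2 and GFRA1 again reached the mean of 0.5 FPKM through W_Res. NRG1 had groups apart with W_Res lower, at -0.88 ± 0.30 (limma, adjusted p = 0.344), as did 7.18% of all genes. With the smooth muscle covariate HAND2 was 0.51, PRPH 0.30, GAL 0.68, NEFL 0.41, LGI4 0.03, GFRA1 0.49 and VIPR2 0.51, and none of these passed. PENK was 1.86 and did not pass, and CRYAB passed at 1.00. NRG1 passed there at -1.31, with W_Res lower, as it did without W_Con replicate 3 (-1.11) and without W_Res replicate 1 (-1.01). Of the 9 genes past the standard with W_Res higher, CRYAB and HAND2 alone passed without W_Con replicate 3. The others there were 1.47 for PENK, 0.99 for VIPR2 and PRPH, 0.93 for GFRA1, 0.90 for NEFL, 0.84 for GAL and 0.81 for LGI4. Without W_Res replicate 2, CRYAB, HAND2, GAL and PENK passed. PENK did not pass without W_Res replicate 1 (0.98) or W_Res replicate 3 (1.48).

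At 28 days of age 15 of 17 neuron genes had a difference below 0, with a median of -0.26 against -0.07 over all genes. NPY and NEFM averaged 0.212 and 0.451 FPKM in PW_Res and reached the mean of 0.5 FPKM through PW_Con. No neuron gene passed the standard, 3 had an unadjusted P under 0.05 in limma (1262 of the 12380 genes tested did), and 3 (GAP43, PRPH and RAB3A) had groups apart with PW_Res lower, beside 11.8% of all genes. GAP43, a protein of growing nerve endings, was at 2.08, 2.47 and 2.26 FPKM in PW_Con and at 0.766, 1.34 and 0.578 FPKM in PW_Res, a difference of -0.81 ± 0.20 (limma, adjusted p = 0.377). GFRA3, the co-receptor for artemin, passed the standard at 2.05 ± 0.84 (limma, adjusted p = 0.477), as did 0.856% of all genes in that direction. It no longer passed without PW_Con replicate 1 or 3 or PW_Res replicate 2 or 3, at 1.54 to 1.81. Its groups overlapped, and over the 12 libraries it spanned from 1.01 to 123.8 FPKM, with the highest value in W_Res replicate 2 and 1.84 FPKM in W_Res replicate 3. EDNRB did not pass, but its groups were apart with PW_Res lower, at -0.88 ± 0.33 (limma, adjusted p = 0.432). It was 1 of 8 signalling genes apart in that direction, beside 11.8% of all genes, and passed without PW_Res replicate 2 (-1.24). Of the 8 signalling genes 5 lay below 0. Of 6 glia genes 4 did, and none of them passed.

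**Figure D3:**
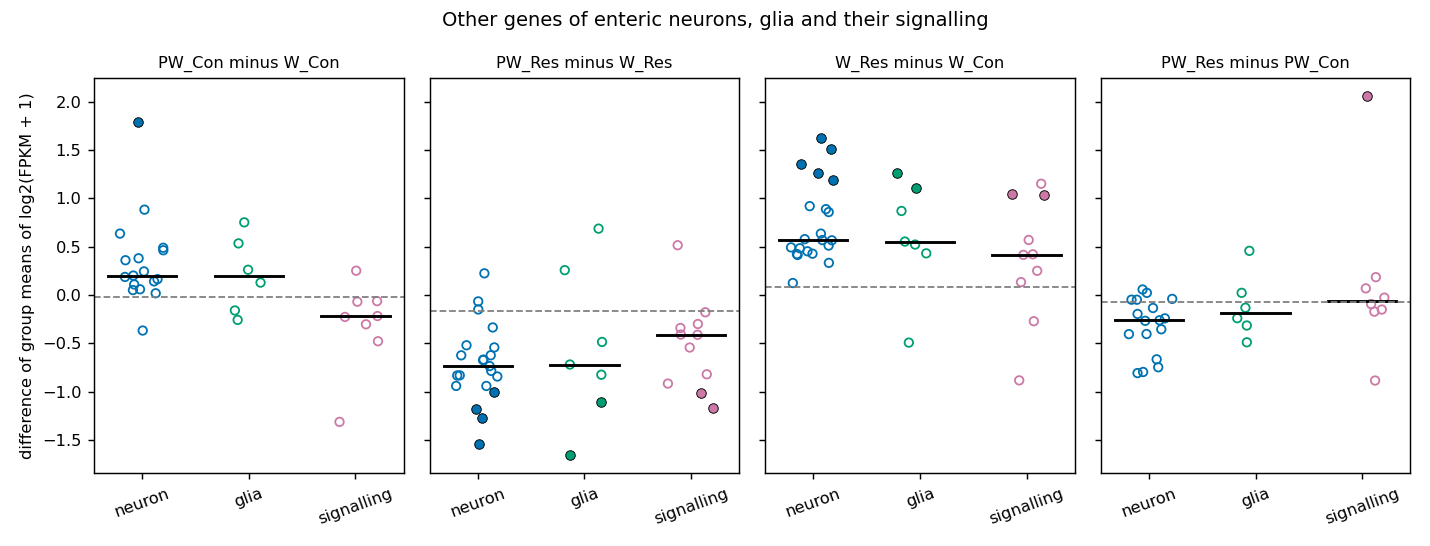
Difference of group means of log2(FPKM + 1) for each tested gene of the neuron, glia and signalling lists in the 4 comparisons, filled where the gene passed the standard, with a bar for the list median and a dashed line for the median of all genes. The neuron medians are 0.20 and -0.73 for weaning in control and resveratrol litters, and 0.57 and -0.26 for resveratrol at 21 and 28 days.

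Relatives of the members with other tissues of expression were looked at after their values had been seen. TUBB, the common beta-tubulin, was at 195 to 510 FPKM, and its weaning difference in resveratrol litters was 0.19 ± 0.38 (limma, adjusted p = 0.848), while that of TUBB3 was -0.92. TUBB4A, another beta-tubulin of neurons, had groups apart there at -1.27 ± 0.32 (limma, adjusted p = 0.311). TUBB2B, which neurons also make, differed by 0.19 ± 0.30 and TUBB6 by -0.12 ± 0.61, both with overlapping groups (limma, adjusted p = 0.809 and 0.946). UCHL3 and SNAP23, the widely expressed relatives of UCHL1 and SNAP25, differed by -0.26 ± 0.18 and -0.07 ± 0.21 (limma, adjusted p = 0.546 and 0.915). VIM, the filament that GFAP pairs with and that all mesenchymal cells make, differed by -1.17 ± 0.41 with groups apart (limma, adjusted p = 0.340).

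Markers of some other cell types moved with these genes. All 9 smooth muscle genes were highest in a W_Res library, 8 of them in W_Res replicate 2, and 8 were lowest in W_Con replicate 3. None was at 0 in any library. Their sums were 156 to 650 FPKM in W_Con, 423 to 574 FPKM in PW_Con, 673 to 3996 FPKM in W_Res and 207 to 647 FPKM in PW_Res, so that W_Res lay above all other groups. ACTG2, the actin of enteric smooth muscle, stood at 614, 1248 and 116 FPKM in W_Res.

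Fibroblast genes (5 measured) summed to 1424 FPKM in W_Res replicate 2 and to 151 to 768 FPKM elsewhere. The 2 endothelial genes were highest in the same library. Epithelial genes (5 measured) went the other way, at 1585 to 2557 FPKM in W_Res and 3213 to 4992 FPKM in PW_Res. Enteroendocrine genes, some of whose cells also contain UCHL1 and SNAP25, summed over 16 genes to 196 to 523 FPKM in W_Con, 319 to 419 FPKM in PW_Con, 326 to 639 FPKM in W_Res and 266 to 368 FPKM in PW_Res. Leukocyte genes (8 measured) did not follow this order, at 242 to 288 FPKM in W_Con, 220 to 366 FPKM in PW_Con, 214 to 279 FPKM in W_Res and 194 to 249 FPKM in PW_Res, with 1 of 8 highest in W_Res. The part of the fibroblast, endothelial, epithelial and enteroendocrine levels in the differences of the neuron and glia genes was not tested.

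Likeness to other genes was also measured. Over the 12 libraries, 11428 genes were ranked by Pearson's r of log2(FPKM + 1) with GFAP and with the mean of the 5 neuron genes. Among the genes most like GFAP were TPM2 (r = 0.978), PYGM (0.968), CNN1 (0.964) and ACTG2 (0.963), and the muscle filament gene DES was at rank 7. TPM2, CNN1 and ACTG2 are genes of the contractile apparatus. The genes most like the neuron mean were a gene known by the identifier ENSSSCG00000011452 (r = 0.962), IFT122 (0.955), SYT11 (0.947), RAMP2 (0.940) and OLFM1 (0.937). SYT11 is a synaptotagmin and OLFM1 a secreted protein abundant in brain. For the neuron mean SMTN was the nearest of the 9 smooth muscle genes, at rank 138 (r = 0.872), with DES at rank 285 (r = 0.829) and ACTG2 at rank 306 (r = 0.827). ACTA2, another smooth muscle actin, was at rank 233 for the neuron mean (r = 0.841) and at rank 346 for GFAP (r = 0.817). All these points share 4 groups and 2 extreme libraries, W_Res replicate 2 and W_Con replicate 3, and the difference between the 2 rankings was not tested.

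**Figure D4:**
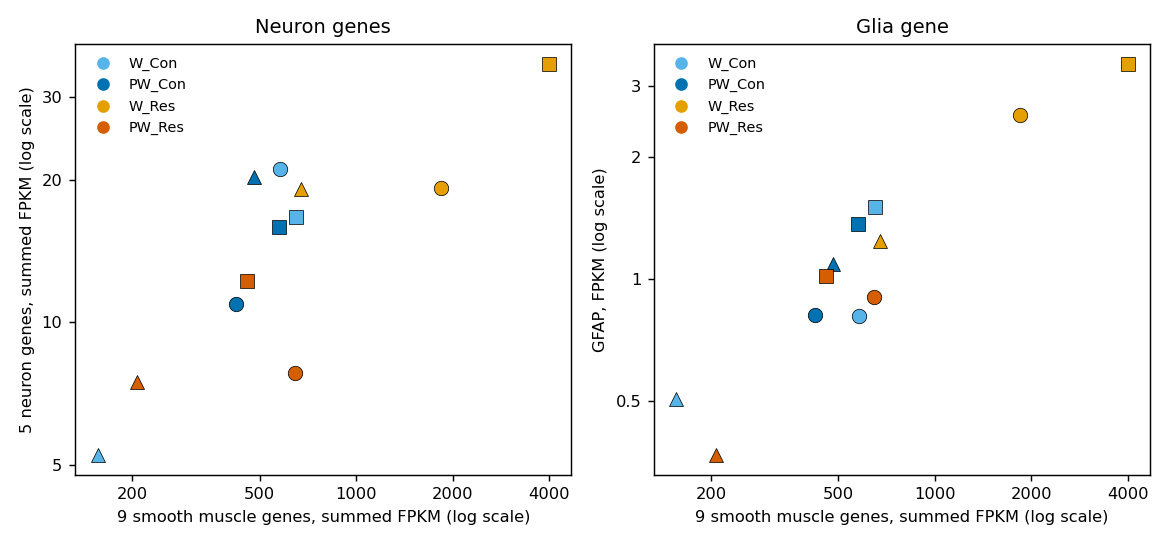
Summed FPKM of 5 neuron genes (left) and FPKM of GFAP (right) against the summed FPKM of 9 smooth muscle genes, log scale on both axes, 1 point per library, coloured by group, with a circle, square or triangle for replicate 1, 2 or 3. W_Res replicate 2 is at the top right at 3996 FPKM of smooth muscle genes, W_Con replicate 3 is leftmost at 156 FPKM, and PW_Res replicate 1 (647 FPKM) lies low for its smooth muscle level in the neuron panel, at 7.80 FPKM.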

How the data were processed

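Poly(A) RNA of jejunum from 12 piglets was sequenced in pairs. The authors aligned reads and estimated FPKM with StringTie and Ballgown. Their text names TopHat, and the submitters' processing notes name HISAT2 2.0, Bowtie 0.12.2, StringTie 1.3.0 and the builds Sscrofa10.2 and mm8. The deposited table gives FPKM for 41264 loci without counts, so that the depth behind a value is unknown. The 17650 unnamed loci were not used, and FPKM was summed by gene name (17049 names). Ensembl identifiers were given symbols from the pig annotation where it has one.

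limma 3.58.1 in R 4.3.3 (lmFit, then eBayes with a trend) was run on log2(FPKM + 1). A gene was tested where its libraries in that fit averaged 0.5 FPKM or more. Comparisons of 2 groups used their 6 libraries, and the difference between weaning effects all 12. The standard was an unadjusted P under 0.05 and a log2 difference above 1 or below -1, with Benjamini-Hochberg adjusted p over all genes tested. The fit was tested on simulated data.

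The members and lists were chosen with earlier results of these data known. Named were the members, list genes past the standard in a comparison of 2 groups, and for each comparison the 5 largest differences of each list among genes averaging 1 FPKM. Exceptions are marked, and results of 2 genes are not reported here. Tried instead were, in turn, a pseudocount of 0.1, no filter at all, a floor of 1 FPKM, the highest row in place of the sum, median-of-ratios rescaling, eBayes without a trend, a replicate block, all 12 libraries in each fit and leaving out each replicate. A smooth muscle score as covariate, W_Res replicate 3 alone and likeness to GFAP in place of S100B were added after seeing the data.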

Additional observations from a re-analysis of the deposited data

Results flagged for a closer look

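Among genes of the neuron, glia and signalling lists with a reported log2 difference, 10 had a weaning difference that itself differed between resveratrol and control litters by the standard, tested as an interaction over 12 libraries in limma. In each the value was lower in resveratrol litters, as in 5.95% of all 12886 genes, and none had an adjusted p under 0.05. The differences of log2 differences were -2.15 for PRPH, -2.03 for HAND2 and -1.15 for RAB3A (limma, adjusted p = 0.251 each). They were -1.38 for NEFL (limma, adjusted p = 0.277), -1.31 for GAL (0.325) and -1.30 for GAP43 (0.317). Among glia genes they were -1.50 for CRYAB (limma, adjusted p = 0.251) and -1.24 for LGI4 (0.331). Among signalling genes they were -1.28 for VIPR2 (limma, adjusted p = 0.251) and -1.21 for GFRA1 (0.325).

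RAB3A and CRYAB still passed the standard with the smooth muscle covariate, at -1.04 and -1.19, and the other 8 did not. Without W_Con replicate 3 the values were -0.89 for GAL, -0.82 for GAP43, -1.10 for GFRA1 and -0.94 for LGI4, and without W_Res replicate 2 they were -1.21, -1.04, -0.96 and -0.92. None of these passed. Leaving out 1 library at a time ended the call of LGI4 in 9 of 12 cases, of GAL in 7, of GFRA1 in 6, of GAP43 in 5 and of RAB3A in 1 (without W_Con replicate 1, at -0.93). Some of these calls ended on the P value with the difference little changed. LGI4 was -1.28 without PW_Res replicate 1 and GAL -1.31 without PW_Con replicate 2 (limma, unadjusted P = 0.0502 and 0.0507). GAP43 was -1.26 without PW_Res replicate 1 (limma, unadjusted P = 0.0532). VIPR2 passed in the 11 of 12 cases in which it was tested. In the remaining case it fell under the mean of 0.5 FPKM and was not tested.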

How the results depend on the processing

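No result changed direction past the standard under an alternative. With a pseudocount of 0.1, genes past the standard numbered 853, 1163, 1008 and 488 for weaning in control litters, weaning in resveratrol litters, resveratrol at 21 days and resveratrol at 28 days, against 418, 618, 590 and 224. List genes past it went from 1 to 2, from 8 to 14 and from 1 to 4 for weaning in control litters, weaning in resveratrol litters and resveratrol at 28 days. GFAP became -1.52 for weaning in resveratrol litters, -1.80 for the difference of the weaning effect and 1.27 for resveratrol at 21 days, and the neuron median of the difference became -1.76. List genes past the standard fell from 13 to 8 for the difference with a minimum of 1 FPKM, and from 1 to 0 for resveratrol at 28 days without a filter, with all 12 libraries or with the covariate. With the smooth muscle covariate, 503 genes instead of 1000 passed for the difference, and 4, 5 and 3 list genes for weaning in resveratrol litters, the difference and resveratrol at 21 days. The neuron medians were -0.25, -0.30 and -0.14 there and GFAP -0.12, -0.19 and 0.061. With W_Res replicate 3 alone, 1129 genes passed for weaning in resveratrol litters and 1046 for resveratrol at 21 days, list genes numbered 5 and 7 for weaning in resveratrol litters and the difference, and GFAP was -0.36, -0.50 and 0.24. The lone library is assumed to vary like the others.

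Leaving out 1 replicate gave 388 to 1049, 633 to 1367, 394 to 944 and 222 to 426 genes for weaning in resveratrol litters, the difference, resveratrol at 21 days and resveratrol at 28 days. List genes were 1 to 2, 4 to 10, 8 to 15, 3 to 10 and 0 to 2, weaning in control litters first. The cause was not tested. A replicate block gave 444, 633, 1059, 631 and 258 genes. Deviations of same-numbered libraries from their group means correlated at -0.26 to 0.11 over genes. Differences between libraries in tissue content can hide a likeness of litter mates, so that these values cannot tell whether the numbers pair piglets. FPKM without counts leaves the precision of these low genes unknown, and GFAP is the only glia member.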
